A study of Rattus norvegicus with 35 samples.

Results

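Cyp7a1-high and Cyp7a1-low livers are the opposite ends of the rat-to-rat variation in hepatic Cyp7a1 mRNA within dose groups. They were chosen by the measured Cyp7a1 signal among 35 livers of a study of the flame retardant 1,2-bis(tribromophenoxy)ethane (BTBPE), in which male Harlan Sprague Dawley rats aged 7 weeks when dosing began received BTBPE or its corn oil vehicle. The signal of each array was set against the mean of its own dose group. The 10 arrays with the largest positive deviation were called Cyp7a1-high, the 10 with the largest negative deviation Cyp7a1-low, and the other 15 middle. Every rat, vehicle rats included, had gavage on 5 consecutive days in 5 ml/kg of corn oil, and the left liver lobe was taken the day after the last dose. The vehicle group held 6 rats, as did the groups at 0.07, 0.69 and 6.88 mg/kg of BTBPE and at the top dose of 680 mg/kg, while 5 rats had 68 mg/kg. The labels call the arrays of a group replications, and each was counted as 1 rat. P-values therefore measure the spread between these samples. Cyp7a1-high and Cyp7a1-low are ranges cut from a continuous measure, not groups of the experiment.

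Cyp7a1 encodes cholesterol 7-alpha-hydroxylase, the rate-limiting enzyme of the classical pathway by which hepatocytes convert cholesterol to bile acids. Its transcription is driven by nuclear receptors such as Hnf4a and Nr5a2 and is held down by returning bile acids, in part through the repressor Nr0b2. In rodents its mRNA is also known to follow a daily rhythm and to respond to feeding and hormones.

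Cyp7a1 was represented by 1 probe set with log2 signals of 10.89, 11.37 and 11.71 (lowest, median and highest) in Cyp7a1-high livers, against 9.39, 9.64 and 10.20 in Cyp7a1-low livers. As deviations from the dose group mean, these livers averaged 0.73 ± 0.18 and -0.89 ± 0.43 (SD, n = 10 each), a distance of 1.62 on the log2 scale or 3.07-fold. These values chose the livers, so they carry no test. The least extreme Cyp7a1-high array lay at 0.481 and the next array outside the class at 0.473, so the upper edge falls in a run of like values. The least extreme Cyp7a1-low array lay at -0.454, and the next outside at -0.252. In order of rising dose from 0 to 680 mg/kg, the dose groups gave 3, 0, 2, 1, 2 and 2 Cyp7a1-high livers, against 2, 1, 2, 2, 1 and 2 Cyp7a1-low livers. Thus 5 of 6 dose groups held both classes, and the 0.07 mg/kg group held no Cyp7a1-high liver.

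**Figure D1:**
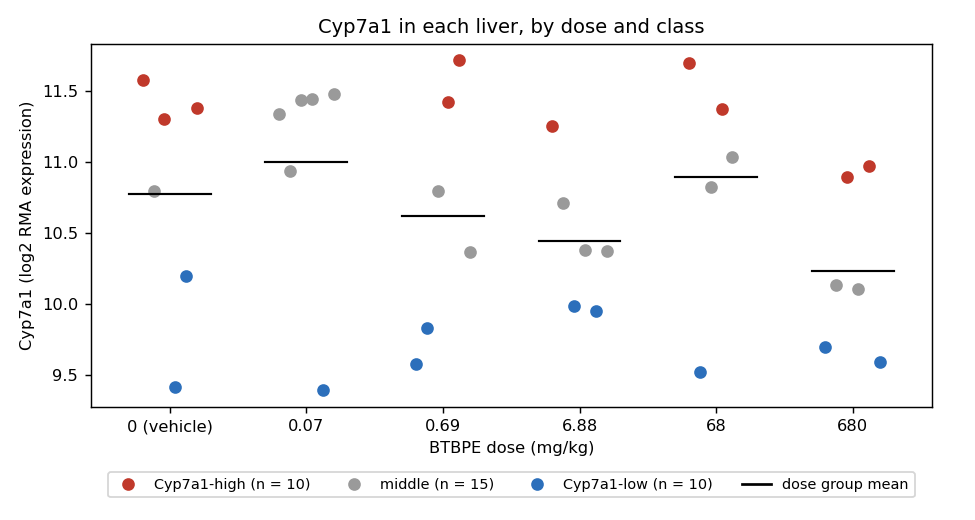
Cyp7a1 log2 signal of each of the 35 livers by dose in mg/kg, with points marked as Cyp7a1-high, Cyp7a1-low or middle and the mean of each dose group as a bar. Both classes occur in 5 of 6 dose groups, and the classes are apart by 3.07-fold when set against their dose group means.

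Livers with high Cyp7a1 had more mRNA of the repressor Bcl6, of the T-box factor Tbx3, of the ligand Efna5 and of the bile acid enzyme Cyp8b1. They had less of the growth hormone-induced inhibitor Socs2, of the clock-linked repressor Bhlhe40 and of the liver factors Onecut1 and Cebpb. Also lower were Sgk1, Errfi1 and Klf9, which are 3 of 11 measured genes on a glucocorticoid-responsive list. Cyp8b1 and Onecut1 no longer passed the test given next without some single arrays, or with a measure of RNA quality in the fit. Across the array, 188 of 31041 other probe sets passed limma's test between the classes within dose groups at an adjusted p under 0.05, which is 0.606%. Of these, 81 (0.261%) were higher and 107 (0.345%) lower in Cyp7a1-high livers. Counted by genes, with 1 probe set each, 112 of 14216 passed (0.788%), 44 of them higher (0.310%) and 68 lower (0.478%). The changes were mostly small, with a median size of 0.39 on the log2 scale among called probe sets and 12 called probe sets beyond 2-fold. The median difference over all genes was 0.003, and 51.8% of genes were higher. In whole-liver RNA, fewer cells of a type and less RNA per cell cannot be told apart.

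A fit of every probe set on Cyp7a1 itself over all 35 arrays called 450 probe sets (1.45%), 233 with a positive slope (0.751%) and 217 with a negative slope (0.699%). By genes, 262 of 14216 had a called slope (1.84%), 128 positive (0.900%) and 134 negative (0.943%). The fit of slopes shared 185 probe sets with the comparison of classes, which used the same Cyp7a1 values. The count of 188 depended on single arrays. It was 77 without 68 mg/kg replicate 2, 89 without vehicle replicate 4, 99 without 0.07 mg/kg replicate 5, 119 without 680 mg/kg replicate 5 and 125 without 0.69 mg/kg replicate 2. The slope count was 245 without 0.07 mg/kg replicate 5, 283 without 68 mg/kg replicate 2, and 109 without the 2 arrays farthest from their dose group mean of Cyp7a1.

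A measure of RNA quality differed between the classes as well. The beta-actin probe sets at the 3 prime and 5 prime ends of the transcript, whose distance grows as RNA degrades, differed in log2 signal by more in Cyp7a1-high livers. Set against dose group means, this difference was -0.03, 0.05 and 0.13 (lowest, median and highest) in Cyp7a1-high livers, against -0.13, -0.07 and 0.09 in Cyp7a1-low livers. The classes overlapped but were apart by 0.10 on average (two-sided permutation test, p = 0.00336). The same measure for Gapdh differed by 0.02 (two-sided permutation test, p = 0.194). With the beta-actin measure added to the fit, 36 probe sets passed, all among the 188. Of the 24 genes with the largest called differences, described next, all 24 kept their sign and 17 stayed past the threshold, while Cyp8b1, Sall1, Xiap, Rbm12b, Onecut1, Mid1ip1 and Klf10 did not. With that measure the log2 differences of Sall1 (0.93, against 0.92 without it), Onecut1 (-1.69, against -1.62), Mid1ip1 (-0.94, against -0.76) and Klf10 (-0.66, against -0.67) were about as large or larger. Those of Cyp8b1 (0.31, against 0.52), Xiap (0.46, against 0.59) and Rbm12b (0.49, against 0.58) were smaller.

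**Figure D2:**
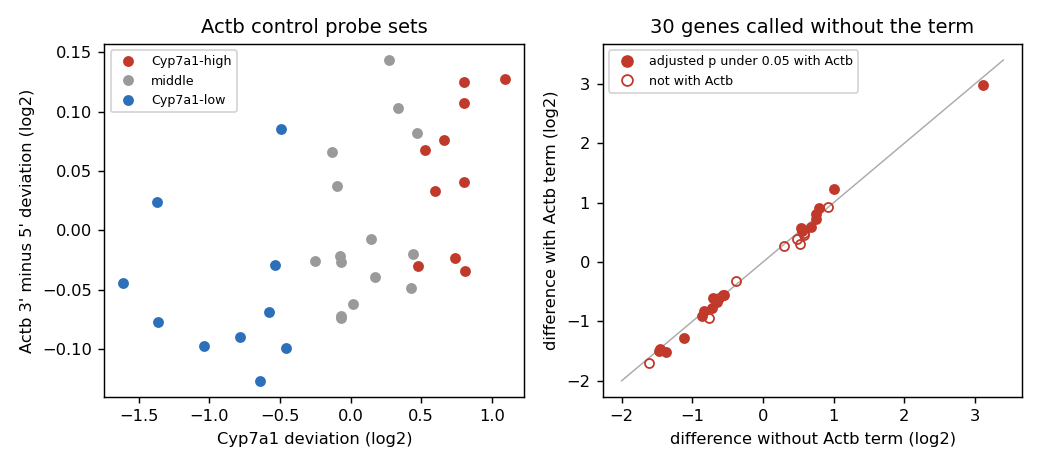
Left, the beta-actin 3 prime minus 5 prime log2 difference (y axis) against Cyp7a1 log2 signal (x axis) in the 35 livers, both as deviations from dose group means, with points coloured by class. Right, the Cyp7a1-high minus Cyp7a1-low log2 difference of 30 called genes without (x axis) and with (y axis) that measure in the fit, filled where the gene stayed past the threshold, with the line of equal values. The class means are apart by 0.10 in the left panel, and all 24 genes with the largest called differences keep their sign in the right panel.

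The 24 genes were the 12 with the largest positive and the 12 with the largest negative difference among called genes of sufficient signal. Bcl6, a transcriptional repressor that in mouse liver binds many of the DNA sites also used by the growth hormone-activated factor STAT5, differed most. Its deviations from the dose group mean were 0.30, 1.08 and 3.02 (lowest, median and highest) in Cyp7a1-high livers, against -3.25, -1.69 and 0.64 in Cyp7a1-low livers. All 10 Cyp7a1-high livers lay above their dose group mean and 1 of 10 Cyp7a1-low livers did. The difference was 8.65-fold (95% interval 4.72 to 15.9, limma adjusted p = 0.000175). The liver that overlapped was 6.88 mg/kg replicate 5, at 0.64, where the next highest Cyp7a1-low liver was at -1.31. It also had the highest beta-actin measure of the Cyp7a1-low livers, 0.09.

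Tbx3, a T-box transcription factor known from pericentral hepatocytes, lay at 0.16, 0.34 and 0.57 (lowest, median and highest deviation) in Cyp7a1-high livers, against -0.89, -0.34 and 0.09 in Cyp7a1-low livers. The classes did not overlap, and the difference was 1.68-fold (95% interval 1.45 to 1.93, limma adjusted p = 0.000175). The other 3 Tbx3 probe sets differed by 0.09, 0.11 and 0.19 on the log2 scale and were not called, at mean log2 signals of 4.72, 2.84 and 4.78, where the array medians ran from 4.71 to 4.79. Efna5, an ephrin ligand of Eph receptors at the cell surface, lay at 0.12, 0.29 and 0.52 in Cyp7a1-high livers, against -0.57, -0.33 and -0.13 in Cyp7a1-low livers. Again no liver overlapped, with a log2 difference of 0.68 (95% interval of the fold 1.42 to 1.81, limma adjusted p = 0.000175), while a second Efna5 probe set, with a mean log2 signal of 4.15 below the array medians, differed by 0.16 and was not called.

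The other genes higher in Cyp7a1-high livers had varied roles. Abcb9, a lysosomal peptide transporter, was 2.01-fold higher, and Sall1, a zinc finger transcription factor, 1.89-fold. Nceh1, a hydrolase of cholesteryl esters, was 1.74-fold higher, and Rin2, an exchange factor for Rab5, 1.69-fold. On the log2 scale Xiap, an inhibitor of caspases, was higher by 0.59, Rbm12b by 0.58, Fndc3b by 0.55 and Mideas by 0.53. The adjusted p-values of these 8 genes by limma ran between 0.000361 (Mideas) and 0.0250 (Abcb9). The Abcb9 call was lost without any one of 0.07 mg/kg replicate 5, 0.69 mg/kg replicate 2, 68 mg/kg replicate 2 or 680 mg/kg replicate 5, with adjusted p-values of 0.0581, 0.0582, 0.0838 and 0.0708. Leaving out any dose group but that of 6.88 mg/kg also lost the Abcb9 call (limma adjusted p up to 0.128). So did the replicate number as a term in the fit (limma adjusted p = 0.0536). Other probe sets of Rin2 (0.04) and Mideas (0.03 and 0.01) were not called, at mean log2 signals of 3.10, 3.28 and 2.86, below the array medians.

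Cyp8b1, the sterol 12-alpha-hydroxylase that directs bile acid synthesis toward cholic acid, was the bile acid enzyme among the 12. Its deviations were -0.19, 0.20 and 0.55 (lowest, median and highest) in Cyp7a1-high livers, against -0.70, -0.27 and 0.09 in Cyp7a1-low livers. The ranges overlapped, although 9 of 10 Cyp7a1-high livers and 1 of 10 Cyp7a1-low livers lay above the dose group mean. The difference was 1.43-fold (95% interval 1.23 to 1.67, limma adjusted p = 0.0148). With the beta-actin measure in the fit it was 0.31 on the log2 scale, against 0.52 without it, and no longer passed (adjusted p = 0.407). The call was also lost without vehicle replicate 4 (adjusted p = 0.0511) or 68 mg/kg replicate 2 (0.0646). With classes of 12 arrays it was lost too (limma adjusted p = 0.0754). Leaving out the vehicle group (0.113) or the 0.07 (0.0504), 0.69 (0.197) or 68 mg/kg group (0.0750) also lost it.

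Among the 12 genes that were lower, Socs2, a growth hormone-induced inhibitor of growth hormone receptor signalling, had deviations of -1.64, -0.68 and 0.22 (lowest, median and highest) in Cyp7a1-high livers, against -0.47, 0.74 and 1.55 in Cyp7a1-low livers. The classes overlapped, and 1 of 10 Cyp7a1-high livers and 9 of 10 Cyp7a1-low livers lay above their dose group mean. Socs2 in Cyp7a1-high livers was 0.363 times its level in Cyp7a1-low livers (95% interval 0.256 to 0.515, limma adjusted p = 0.00201). Bhlhe40, a repressor that binds E-boxes and is tied to the clock, lay at -1.23, -0.72 and 0.16 in Cyp7a1-high livers, against 0.03, 0.59 and 1.94 in Cyp7a1-low livers. It was the second most lowered of the 12, at 0.361 times (95% interval 0.258 to 0.506, limma adjusted p = 0.00148).

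Onecut1 and Cebpb, both transcription factors of hepatocytes, were also lower. Onecut1, a liver-enriched homeodomain factor, showed the lowest ratio, 0.326 (limma adjusted p = 0.0359), with deviations of -2.37, -0.53 and -0.01 in Cyp7a1-high livers, against -0.77, 0.80 and 1.74 in Cyp7a1-low livers. A second Onecut1 probe set was called too, with a log2 difference of -1.35. Cebpb, a factor of the acute response and of gluconeogenesis, lay at -0.57, -0.28 and -0.08 in Cyp7a1-high livers, against -0.17, 0.31 and 0.76 in Cyp7a1-low livers (ratio 0.636, 95% interval 0.541 to 0.747, limma adjusted p = 0.00239). No Cyp7a1-high liver and 9 of 10 Cyp7a1-low livers lay above the dose group mean of Cebpb. Its call was lost with the vehicle group left out (limma adjusted p = 0.0563). The Onecut1 call was lost without each of 10 of the 20 classed arrays in turn, with adjusted p-values up to 0.121 (without 68 mg/kg replicate 2), and with the beta-actin measure (0.160), where the log2 difference was -1.69, against -1.62 without it.

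Sgk1, a kinase induced by glucocorticoids, lay at -1.17, -0.67 and -0.23 in Cyp7a1-high livers, against 0.04, 0.68 and 2.05 in Cyp7a1-low livers. The classes did not overlap (ratio 0.387, limma adjusted p = 0.00870). With the vehicle group left out the Sgk1 call was lost (limma adjusted p = 0.131). Errfi1, an inhibitor of the EGF receptor, was at -1.03, -0.29 and 0.11 in Cyp7a1-high livers, against 0.13, 0.38 and 1.08 in Cyp7a1-low livers, also without overlap (ratio 0.551, limma adjusted p = 0.00556). The other lower genes were the mitochondrial carrier Slc25a30 (ratio 0.462), the ubiquitin ligase Pdzrn3 (0.561), Mid1ip1, which promotes the activity of acetyl-CoA carboxylase (0.589), Rtp3 (0.604), Lurap1l (0.612) and the zinc finger factor Klf10 (0.627). Mid1ip1 was past the threshold by little (limma adjusted p = 0.0382) and lost its call without each of 11 of the 20 classed arrays, with adjusted p-values up to 0.144. Slc25a30 lost its call without 68 mg/kg replicate 2 (adjusted p = 0.0568), while a second Slc25a30 probe set was also called, at -1.36 on the log2 scale.

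The 24 genes were picked by their differences between these classes, so counts of them in each liver are a description. Of the 28 probe sets whose classes did not overlap (0.0902% of all), 16 lay wholly above in Cyp7a1-high livers (0.0515%) and 12 wholly below (0.0387%). Among the 24 genes these were Efna5, Fndc3b, Rin2, Sall1 and Tbx3 above and Errfi1, Mid1ip1, Pdzrn3, Rtp3 and Sgk1 below, 10 in all. A Cyp7a1-high liver had between 21 and 24 of the 24 genes on the side of its class (median 23). A Cyp7a1-low liver had between 0 and 14 genes on the Cyp7a1-high side (median 0), and the liver with 14 was 6.88 mg/kg replicate 5. A middle liver had between 3 and 23 genes on the Cyp7a1-high side (median 14). All 24 differences had the same sign in each of the 5 dose groups that held both classes, which is a description of the values that named the genes.

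**Figure D3:**
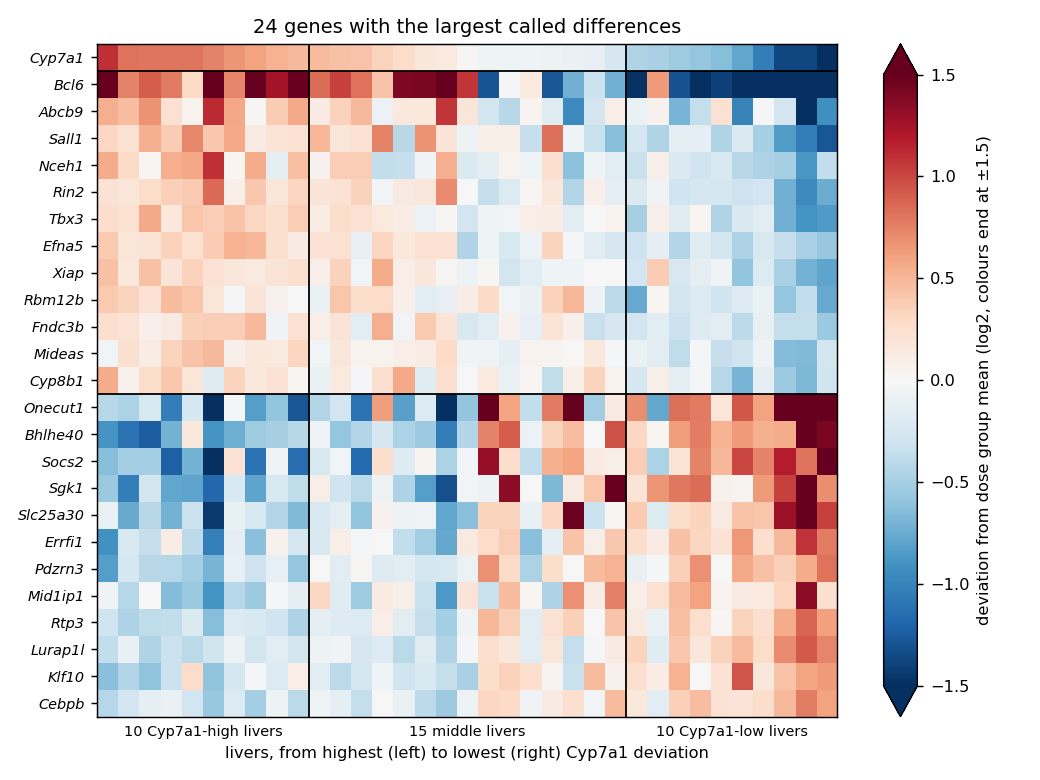
Deviation of log2 signal from the dose group mean for Cyp7a1 (top row) and the 24 genes with the largest called differences (rows) in each liver (columns, from the highest Cyp7a1 deviation at the left to the lowest at the right), with colour for the deviation. Cyp7a1-high livers have 21 to 24 of the 24 genes on the side of their class, and 1 Cyp7a1-low liver has 14 genes on the opposite side to the rest.

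The 15 middle livers belonged to neither class, but they were ranked by Cyp7a1 too and entered the fit that called the genes. They shared its dose group means and its estimate of the spread. Their slopes on Cyp7a1 are therefore a description and no independent support. The genes were not shown to vary independently, so the counts below are not a test. In a fit of the middle livers alone, all 24 genes had a slope of the same sign as the class difference, 6 at an unadjusted p under 0.05. Of the 188 called probe sets 170 had the same sign (90.4%), where 53.0% of all probe sets did. At an unadjusted p under 0.05 there were 42 of the 188 (22.3%) and 1796 of all (5.79%). No probe set passed limma's adjusted threshold in these 15 livers. Bcl6 had a slope of 3.84 on the log2 scale per log2 of Cyp7a1 in the middle livers (unadjusted p = 0.00198), while Tbx3 had 0.07 (unadjusted p = 0.670).

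By likeness of pattern over all 35 arrays, the 10 nearest genes were Tbx3 (Pearson r 0.88), Bcl6 (0.87), Lurap1l (-0.86), Midn (-0.85), Efna5 (0.84), Rin2 (0.84), Xiap (0.84), Stbd1 (0.83), Bhlhe40 (-0.83) and Xbp1 (-0.83). The correlations are of deviations from dose group means and describe arrays that also defined the classes. Spearman's rho ran from 0.77 to 0.87 for the positive genes and from -0.85 to -0.78 for the negative ones. Midn, Stbd1 and Xbp1 were not among the 24. Midn, which takes nuclear proteins to the proteasome, was 0.674 times as high in Cyp7a1-high livers (limma adjusted p = 0.000175), and Xbp1, a factor of the unfolded protein response, 0.769 times (0.00239). Stbd1, a glycogen-binding protein, was higher by 0.48 on the log2 scale (limma adjusted p = 0.00457). With the beta-actin measure Xbp1 and Stbd1 did not pass (adjusted p = 0.0869 and 0.146). The beta-actin measure had an r of 0.54 with Cyp7a1 over the same arrays.

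**Figure D4:**
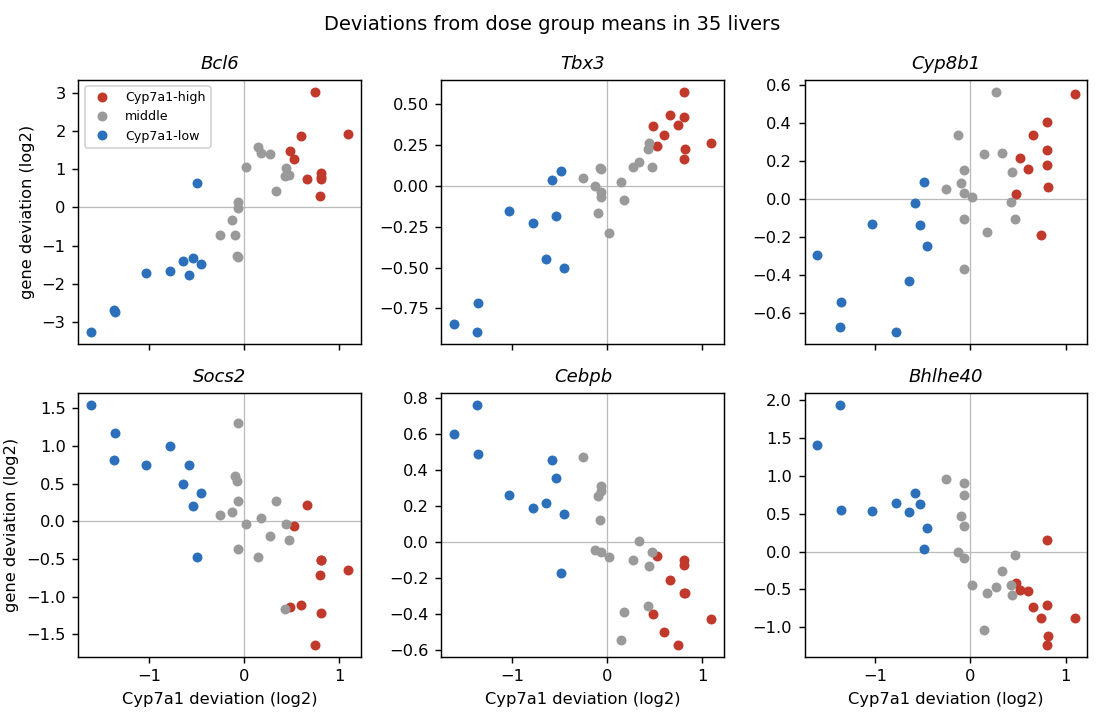
Deviation of Bcl6, Tbx3, Socs2, Bhlhe40, Cyp8b1 and Cebpb log2 signal from the dose group mean (y axis) against that of Cyp7a1 (x axis) in the 35 livers, with points marked by class. Bcl6 and Tbx3 follow Cyp7a1 upward (r 0.87 and 0.88), Bhlhe40 runs downward (r -0.83), and 1 Cyp7a1-low liver has Bcl6 at 0.64.

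Promoter sequences of Bcl6, Efna5 and Bhlhe40 are shown because they hold the palindromic E-box CACGTG, the element bound by clock factors and by Bhlhe40, and that of Cyp8b1 because it was the called bile acid enzyme. Each runs 5′ to 3′ from 250 bases before to 50 after the annotated start on the gene's strand, from RefSeq on build GRCr8, with CACGTG in capitals. The Bcl6 window is chr11:90358503-90358802 (plus strand), Efna5 chr9:110042138-110042437 (minus), Bhlhe40 chr4:143174200-143174499 (plus) and Cyp8b1 chr8:130457543-130457842 (minus).
Bcl6: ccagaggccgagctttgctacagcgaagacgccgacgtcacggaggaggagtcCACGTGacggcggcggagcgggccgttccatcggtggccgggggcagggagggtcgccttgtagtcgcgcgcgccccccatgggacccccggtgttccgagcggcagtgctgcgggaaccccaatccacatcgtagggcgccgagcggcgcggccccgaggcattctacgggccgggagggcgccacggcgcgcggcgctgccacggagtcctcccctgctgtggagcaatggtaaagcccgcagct
Efna5: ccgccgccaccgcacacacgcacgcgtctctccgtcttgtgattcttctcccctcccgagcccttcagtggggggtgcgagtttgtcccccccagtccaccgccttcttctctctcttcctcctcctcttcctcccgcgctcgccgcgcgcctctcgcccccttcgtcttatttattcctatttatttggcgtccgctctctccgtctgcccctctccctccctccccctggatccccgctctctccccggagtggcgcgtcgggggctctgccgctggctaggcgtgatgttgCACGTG
Bhlhe40: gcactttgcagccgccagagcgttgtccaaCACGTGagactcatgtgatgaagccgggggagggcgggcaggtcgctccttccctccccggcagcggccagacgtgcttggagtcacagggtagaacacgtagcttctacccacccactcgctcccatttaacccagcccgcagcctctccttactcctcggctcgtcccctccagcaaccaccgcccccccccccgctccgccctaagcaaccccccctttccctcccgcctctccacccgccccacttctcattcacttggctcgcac
Cyp8b1: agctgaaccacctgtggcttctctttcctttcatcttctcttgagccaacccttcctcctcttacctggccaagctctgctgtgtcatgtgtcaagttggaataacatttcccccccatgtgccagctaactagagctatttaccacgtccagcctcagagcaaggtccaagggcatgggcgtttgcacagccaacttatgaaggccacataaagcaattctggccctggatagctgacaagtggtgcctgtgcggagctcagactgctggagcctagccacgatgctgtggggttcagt
The E-box lay 197 bases before the start of Bcl6, 220 before that of Bhlhe40 and at base 45 after that of Efna5. The motifs were searched on both strands in 27457 windows of this length, and chosen with the results known. CACGTG was in 6.65% of all windows, in 8 of 35 windows of genes called higher (22.9%) and in 4 of 60 of genes called lower (6.67%). TTCNNNGAA, the form bound by STAT5, was in 8.68% of all windows, in 1 of 35 of the higher genes (2.86%) and 4 of 60 of the lower genes (6.67%). AGGTCA, a nuclear receptor half-site, was in 15.7% of all windows, in 3 of 35 (8.57%) and in 3 of 60 (5.00%). These are matches of letters, with no test. The 27457 windows were not limited to genes measured or expressed in these livers. Windows were found for 35 of the 44 genes called higher and for 60 of the 68 called lower. Cyp7a1, Tbx3, Socs2 and Onecut1 had none.

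Of the bile acid synthesis enzymes, 1 of 17 measured genes passed, Cyp8b1, and 15 of 17 were higher with a median log2 difference of 0.02. Cyp27a1, which opens the alternative pathway, differed by 0.03 (limma adjusted p = 0.915). Its partner enzyme Cyp7b1 had a mean log2 signal of 2.70, below the array medians, and a difference of -0.00 (adjusted p = 0.998). Bile acid transporters had 0 of 13 called, 11 of 13 higher and a median of 0.09, with the canalicular flippase Atp8b1 at 0.18 (limma adjusted p = 0.242) and the uptake carrier Slco1b2 at 0.08 (0.603).

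Among 17 measured regulators of bile acid synthesis, Prox1 was higher and Cebpb lower, and the median difference was 0.04. Prox1, a homeobox factor known as a co-repressor of Nr5a2, was 1.23-fold higher (limma adjusted p = 0.0489). The call was lost without each of 16 of the 20 classed arrays. It was also lost with the beta-actin measure (adjusted p = 0.329), where the log2 difference was 0.27, against 0.30 without it. A second, dim probe set (mean log2 signal 3.96) differed by 0.01. Nr0b2, the bile acid-induced repressor, lay at -0.89, -0.05 and 0.64 (lowest, median and highest deviation) in Cyp7a1-high livers, against -0.88, 0.41 and 0.75 in Cyp7a1-low livers, and was not called (limma adjusted p = 0.879). The activators Hnf4a and Nr5a2 differed by 0.24 and 0.16 without passing between classes (limma adjusted p = 0.196 and 0.195), and passed in the slope fit (0.0252 and 0.0469). The Nr5a2 slope call was lost without each of 23 of the 35 arrays, with adjusted p-values up to 0.145. That of Hnf4a was lost without 0.07 mg/kg replicate 5 or 0.69 mg/kg replicate 2 (up to 0.220) and with the beta-actin measure (adjusted p = 0.292).

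All 18 measured genes of cholesterol synthesis were higher in Cyp7a1-high livers, where 51.8% of all genes were, and none was called. Their median log2 difference was 0.15, where that of all genes was 0.003. These genes were not shown to vary independently, so the count is not a test. Lss, which closes the sterol ring, differed by 0.34 (limma adjusted p = 0.348), Sqle by 0.30 (0.567), Nsdhl by 0.19 (0.455) and Cyp51 by 0.14 (0.727). The mean over the list in each liver was -0.31, 0.14 and 0.34 (lowest, median and highest) in Cyp7a1-high livers, against -0.53, -0.06 and 0.10 in Cyp7a1-low livers, so the classes overlapped. With the beta-actin measure in the fit, Lss differed by 0.19, Sqle by 0.11, Nsdhl by 0.06 and Cyp51 by 0.00. The slopes of these genes on Cyp7a1 did not keep their sign in every alternative fit. They ran from -0.60 to 0.27 for Lss, -0.52 to 0.24 for Sqle, -0.07 to 0.16 for Nsdhl and -0.32 to 0.13 for Cyp51. Among 13 genes of sterol regulation, uptake and efflux none was called between classes and 10 were lower (median -0.04). Insig1, which retains the sterol sensor in the endoplasmic reticulum, differed by -0.59 (limma adjusted p = 0.239), and the sterol carrier Stard4 by -0.41 (0.124), with Stard4 called in the slope fit (0.0234), though not without 0.07 mg/kg replicate 5 or 68 mg/kg replicate 2 (adjusted p up to 0.109).

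Of 17 measured core clock genes, Bhlhe40 alone passed, and 11 of 17 were lower with a median of -0.04. Bmal1, the activator of the clock, lay at -0.23, -0.03 and 0.12 (lowest, median and highest deviation) in Cyp7a1-high livers, against -0.13, 0.01 and 0.15 in Cyp7a1-low livers (limma adjusted p = 0.879). Per2, a repressor of the loop, spanned -0.06 to 0.12 in Cyp7a1-high livers, against -0.12 to 0.22 in Cyp7a1-low livers (adjusted p = 0.960). For both genes the ranges of the classes overlapped. Nr1d1 differed by 0.52 (limma adjusted p = 0.426) and the output gene Dbp by 0.01 (0.993), with mean log2 signals of 4.52 and 3.84 that were below the array medians. At an unadjusted p under 0.05 there were 6 of the 17 clock genes, where 1438 of all 14216 genes were. The lists of regulators of bile acid synthesis (7 of 17), fasting (6 of 18) and glucocorticoid response (6 of 11) had as many or more, and the other lists fewer. Beside Bhlhe40 and Nr1d1 the clock genes were the repressors Nr1d2 at 0.36 (limma adjusted p = 0.495) and Cry1 at -0.29 (0.397), and the activators Rora at -0.22 (0.230) and Npas2 at -0.21 (0.359). With the beta-actin measure Nr1d1 (0.37), Nr1d2 (0.17), Cry1 (-0.09) and Npas2 (-0.13) had unadjusted limma p-values of 0.147, 0.332, 0.457 and 0.176. Bhlhe40 and Rora (-0.18, unadjusted p = 0.0437) stayed under 0.05. A second, dim Rora probe set (mean log2 signal 4.43) differed by 0.05, and the other Nr1d2 probe sets by 0.13 and 0.29. Clock output genes had 0 of 13 called and a median of -0.05, with Nampt at -0.20 (limma adjusted p = 0.695) and Lpin1 at 0.16 (0.742).

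Genes of fasting and gluconeogenesis had 0 of 18 called between classes, 9 higher and 9 lower, with a median of 0.01. Pck1, the rate-limiting enzyme of gluconeogenesis, differed by 0.37 (limma adjusted p = 0.482) and Igfbp1 by 0.18 (0.938). Fgf21, a hormone of the fasted liver, lay at -1.40, -0.41 and 0.71 (lowest, median and highest deviation) in Cyp7a1-high livers, against -0.29, 0.66 and 1.96 in Cyp7a1-low livers. It did not pass between classes (ratio 0.472, limma adjusted p = 0.118) but had a called negative slope (0.0247), as had Pdk4, which limits glucose oxidation (0.0284). With the beta-actin measure neither slope passed (limma adjusted p = 0.0549 for Fgf21 and 0.288 for Pdk4). The Fgf21 call was also lost without 0.69 mg/kg replicate 4 or 68 mg/kg replicate 2 (up to 0.148), and that of Pdk4 without each of 6 of the 35 arrays (up to 0.183). Feeding and lipogenic genes had 0 of 19 called, 14 higher and a median of 0.07. Among them Acaca and Egr1 had called positive slopes (limma adjusted p = 0.0283 and 0.0299), with class differences of 0.29 and 1.14, and Fasn differed by 0.12 (adjusted p = 0.885). These slope calls were lost with the beta-actin measure (adjusted p = 0.235 for Acaca and 0.108 for Egr1), and without each of 7 of the 35 arrays for Acaca (up to 0.149) and 6 for Egr1 (up to 0.122).

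The glucocorticoid-responsive list was drawn up with results of these data known, so its counts are not a test. Of its 11 measured genes 7 were lower, with a median of -0.17. It held 3 called genes, all lower, where 0.478% of all genes were called lower. Beside Sgk1 and Errfi1 this was Klf9, a zinc finger factor also induced by thyroid hormone, at -0.64, -0.23 and 0.10 (lowest, median and highest deviation) in Cyp7a1-high livers, against 0.05, 0.32 and 0.62 in Cyp7a1-low livers (ratio 0.681, limma adjusted p = 0.00214). Klf9 was the single called gene of the 9 measured on the thyroid hormone list. Its other probe sets differed by -0.58, which was called, and by -0.04 at a dim mean log2 signal of 3.47. The 4 genes of the glucocorticoid list that were higher did not pass, namely Mt2A at 0.29 (limma adjusted p = 0.891), Fkbp5 at 0.15 (0.538), Mt1 at 0.12 (0.911) and Tsc22d3 at 0.09 (0.861), and a second Fkbp5 probe set differed by -0.03. Immediate early genes had 1 of 12 called, with 5 higher and 7 lower. The stress factor Atf3 was 0.651 times as high in Cyp7a1-high livers (limma adjusted p = 0.0450). Jun differed by -0.58 (limma adjusted p = 0.171) with a called negative slope (0.0332), which was lost without each of 7 of the 35 arrays (up to 0.170) and with the beta-actin measure (0.112). In the other direction lay Egr1 at 1.14 (limma adjusted p = 0.153), Myc at 0.35 (0.776) and Ier3 at 0.25 (0.744). The Atf3 call was lost without each of 14 of the 20 classed arrays and with the beta-actin measure (adjusted p = 0.268), where the log2 difference was -0.60, against -0.62 without it.

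The male-predominant and growth hormone list held Bcl6 and Socs2 as called genes of 13 measured, 1 higher and 1 lower. Cish, another target of STAT5, did not pass (difference -0.67, limma adjusted p = 0.595), and the 13 genes had a median of 0.01. No gene passed among 16 of the acute phase (median -0.02), 15 targets of PPAR-alpha (0.03) and 10 targets of CAR and PXR (-0.03). Over all 28 lists 11 of 317 measured genes were called (3.47%), where 0.788% of all genes were. The lists were drawn up with results of these data known, so the 2 shares are not a test.

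**Figure D5:**
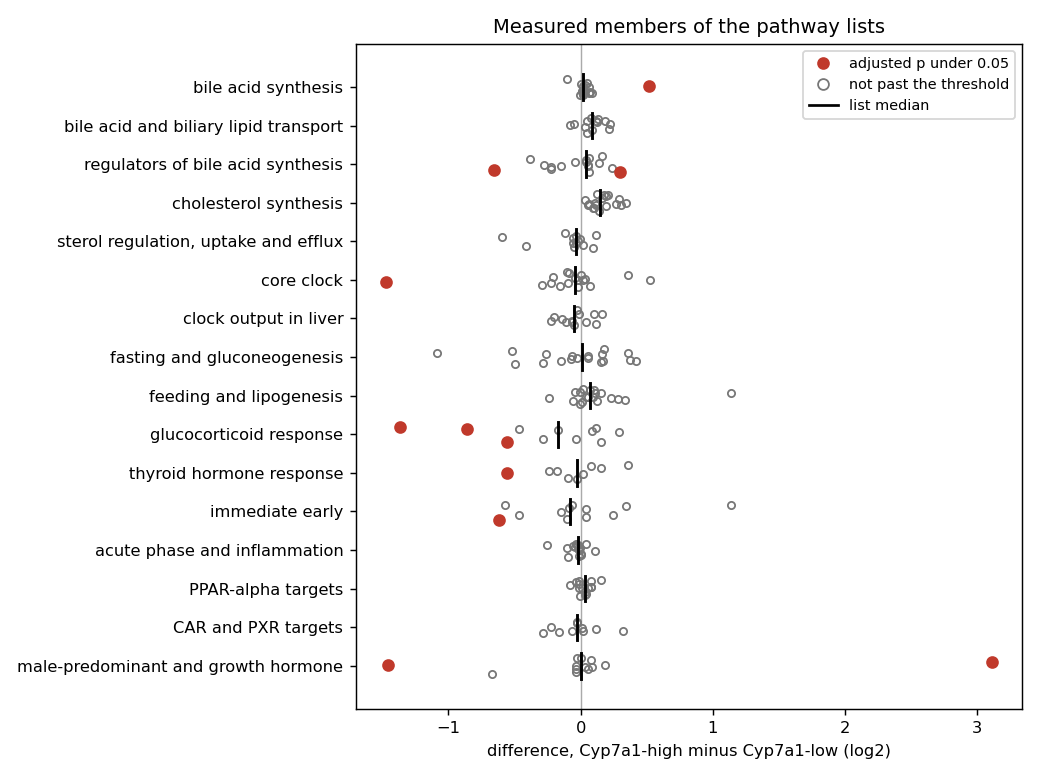
High minus low log2 difference of every measured gene in the pathway lists, 1 row per list, with called genes marked and the list median as a bar. Bcl6 at 3.11 is the farthest point, and list medians stay between -0.17 and 0.15.

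Markers of other cell types were not called between classes. Kupffer cell and macrophage markers were lower for 10 of 11 genes with a median of -0.10 and none called. Their list mean was -0.65, 0.05 and 0.28 (lowest, median and highest) in Cyp7a1-high livers, against -0.46, 0.16 and 0.45 in Cyp7a1-low livers, and its part in the results was not tested beyond the fit that held it as a term, which called 152 probe sets. No gene passed among the markers of hepatocytes in general (7 measured), periportal hepatocytes (11), endothelium (9), stellate cells and fibroblasts (10), cholangiocytes (6), lymphocytes (10, with 8 below the array medians), blood (4), neutrophils (4), exocrine pancreas (8) or proliferation (8). Of 11 pericentral markers Tbx3 alone passed, and 8 were higher with a median of 0.03.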

How the data were processed

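Liver RNA of 35 rats was hybridised to single-colour Affymetrix 3 prime arrays, after a selection on RNA integrity described in the labels' protocols. RMA and the affy package are named, without versions, per the submitters' processing notes. What the authors deposited was taken as log2 expression from RMA, whose convention gives the base. The values ran from 1.45 to 14.44 with array medians of 4.71 to 4.79. RMA's quantile step reduces a shift shared by most transcripts and its background step compresses dim differences. A hybridisation signal has no read depth, so the number of arrays limits the precision.

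After leaving out 57 of 31099 probe sets as controls, and the Cyp7a1 probe set, 31041 entered the fits with no filter on dim signal. Genes were named from the platform annotation (20826 probe sets with 1 symbol, 436 with several, 9780 with none), and 20758 symbols matched RefSeq GRCr8. A gene was represented by its probe set of highest mean. Genes of the lists that had no such probe set were not analysed here.

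limma 3.58.1 in R 4.3.3 fitted dose group and class (Cyp7a1-high, middle, Cyp7a1-low) to all 35 arrays, and in a second fit dose group and Cyp7a1, with Benjamini-Hochberg adjustment over all probe sets and a threshold of 0.05. Class differences are fitted values, while the listed deviations are from dose group means. Intervals hold at 95% for each gene alone and come from the first fit. Permutation tests used SciPy 1.17.1 with 100000 resamples. The fits were tested on simulated data.

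Named genes were the 12 largest called differences in each direction among genes with a mean at or above the lowest array median, called members of each list (at most 4, or the 2 of smallest p where none passed), the 10 genes most alike to Cyp7a1, and bile acid, clock and feeding genes named in any case. Nr5a2, Hnf4a, Jun, Cish, Sqle, Cyp51, Nr1d2, Cry1, Rora, Npas2, Fkbp5, Tsc22d3, Mt1, Mt2A, Myc and Ier3 were named after their values were seen. The classes, genes and lists were chosen with earlier results of these data known. Alternatives covered normalisation, filters, class size, RNA quality, array weights, replicate numbers and left-out arrays or dose groups.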

Additional observations from a re-analysis of the deposited data

Results flagged for a closer look

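Of 152 sets of 10 livers (1 gene in 1 class), 8 held a liver that stood apart from the other 9, where chance marks about 1 in 20. The deviations are from dose group means on the log2 scale. In Cyp7a1-high livers, 680 mg/kg replicate 5 was highest for Rin2 at 0.85, with the next at 0.40, and lowest for Slc25a30 at -1.44, with the next at -0.76. In Cyp7a1-low livers, 6.88 mg/kg replicate 5 was highest for Bcl6 at 0.64, with the next at -1.31, and lowest for Nampt at -0.46, with the next at -0.04. The Cyp7a1-low liver of 68 mg/kg replicate 2 was highest for Sgk1 at 2.05 (next 1.02) and for Mid1ip1 at 1.34 (next 0.60), and lowest for Pck1 at -0.96 (next -0.14). Vehicle replicate 5, also Cyp7a1-low, was lowest for the dim gene Dbp at -0.45 (next -0.11). The slope on Cyp7a1 was also compared between dose groups, and 0 probe sets passed limma's interaction test (smallest adjusted p = 0.180), with 1656 at an unadjusted p under 0.05.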

How the results depend on the processing

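The 188 probe sets that differed between Cyp7a1-high and Cyp7a1-low livers were 320 with the 20 chosen arrays fitted alone as deviations and 36 with the Actb measure. Leaving out a dose group gave 60 (vehicle), 87 (0.07 mg/kg), 52 (0.69), 230 (6.88), 78 (68) and 91 (680), and leaving out 1 array gave 77 to 235. The 450 slopes became 199 with the Actb measure, 109 without the 2 farthest arrays, 245 to 502 without 1 array, and 0 in the 15 middle arrays, an alternative chosen after seeing the data (1796 at an unadjusted p under 0.05). These fits hold fewer arrays, or a further term that moved with the classes, and the cause was not tested. The fit of the 20 chosen arrays did not count the degrees of freedom spent on the dose group means, so its 320 is not a like count. Listed genes called between classes numbered 11, against 19 by slope and 8 to 11 without 1 array. The Actb difference of 0.10 was 0.0234 for Gapdh. In the 15 middle arrays the slope of Acaca was -0.16 (limma adjusted p = 0.971), against a positive slope over all arrays. The 24 genes of largest difference kept their sign in every alternative run, with 19 to 24 past the threshold without 1 array and 15 to 23 without 1 dose group.

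Deviations of arrays with the same replicate number in different dose groups correlated with a median r of -0.02 (range -0.29 to 0.24, 85 pairs). For arrays with different numbers the median r was 0.001 (425 pairs). These correlations are over all probe sets, so they cannot show whether the number pairs the livers for a subset of genes. With the number as a replicate block, 114 probe sets passed between classes and 297 by slope, and the Actb difference was 0.10. Another Cyp7a1 probe set was not run, since 1 was measured.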
